A study of Homo sapiens with 4 samples.

Results

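The HNRNP family exons described here are all alternative splicing events listed for 9 genes of heterogeneous nuclear ribonucleoproteins: HNRNPA1, HNRNPA2B1, HNRNPC, HNRNPD, HNRNPH1, HNRNPH3, HNRNPK, HNRNPM and HNRNPR. They were chosen by gene symbol and came to 202 of 121269 events in the tables, and to 9 of 12219 genes. By kind, 125 were skipped exons, 62 were pairs of mutually exclusive exons, 6 and 7 were alternative splice sites at the 3′ and the 5′ end of an intron, and 2 were retained introns. The cells were U87MG, a glioblastoma cell line, transfected at 2.5 µM with RBFOXi, an RNA decoy oligonucleotide that carries tandem copies of the motif bound by RBFOX proteins, or with SCRM, a scrambled control oligonucleotide. There were 2 libraries of each, which the study describes as independent biological replicates, and the labels mention a Cy5 dye on the oligonucleotide of RBFOXi replicate 1 alone. The tables hold read counts for the form with and the form without each alternative region, so they show how a transcript was spliced and not how much RBFOX2 or any other protein was present.

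hnRNP proteins coat newly made RNA and, among other roles, repress or promote exons near their binding sites. Genes for splicing factors are themselves heavily spliced, both into protein forms of different length and into transcripts that are destroyed by nonsense-mediated decay (NMD), a pathway that removes RNAs with a premature stop codon. RBFOX2 binds UGCAUG, is known to favour an exon when the motif lies in the intron after it and skipping when the motif lies before it, and works within an assembly of splicing regulators (LASR) to which hnRNP M, hnRNP H and hnRNP C belong.

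UGCAUG lay close to 7 of the exons that passed the count filter, and the genomic context of each match is shown. These are the tested HNRNP exons with UGCAUG within 300 nt in a flanking intron. The letters searched were TGCATG, on the strand of the gene, in the first 300 nt of the intron after the exon and the last 300 nt of the intron before it. The sequences are from GRCh37 (hg19), 5′ to 3′, with 20 nt on each side of the motif, which is in capitals.
HNRNPM 45 nt exon, after the exon, chr19:8538657-8538702, plus strand: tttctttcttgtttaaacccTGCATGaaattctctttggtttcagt
HNRNPM 54 nt exon, after the exon, chr19:8548315-8548360, plus strand: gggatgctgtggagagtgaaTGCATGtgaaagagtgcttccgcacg
HNRNPA1 156 nt exon, after the exon, chr12:54677092-54677137, plus strand: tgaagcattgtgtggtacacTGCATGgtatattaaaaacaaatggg
HNRNPA1 156 nt exon, before the exon, chr12:54676720-54676765, plus strand: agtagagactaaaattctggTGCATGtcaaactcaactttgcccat
HNRNPD 57 nt exon, after the exon, chr4:83292442-83292487, minus strand: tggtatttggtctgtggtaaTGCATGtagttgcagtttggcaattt
HNRNPR 114 nt exon, before the exon, chr1:23660337-23660382, minus strand: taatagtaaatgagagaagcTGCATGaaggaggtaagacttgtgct
HNRNPH1 206 nt intron, after the 156 nt exon and before the 144 nt exon, chr5:179048134-179048179, minus strand: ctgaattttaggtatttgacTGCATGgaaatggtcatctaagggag

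Of the 49 distinct HNRNP exons tested, 5 had the motif after them (10.2%) and 3 before them (6.12%), and 7 had it on either side (14.3%). Over all 30634 tested exons the shares were 8.36% after, 8.16% before and 15.8% on either side. The match lay 84 nt after the HNRNPH1 156 nt exon and 118 nt before the HNRNPH1 144 nt exon, 85 nt after the HNRNPM 45 nt exon, 94 nt after and 118 nt before the HNRNPA1 156 nt exon, 214 nt after the HNRNPD 57 nt exon, 240 nt after the HNRNPM 54 nt exon and 233 nt before the HNRNPR 114 nt exon. The shorter motif GCAUG, without the first U, lay within 300 nt of 18 of the 49 exons (36.7%), against 42.0% of all tested exons. Its nearest match lay 19 nt after another HNRNPH1 exon (chr5:179044052-179044111). A match is a description of the letters and not of binding.

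Next, alternative regions that set named protein forms of HNRNPA2B1, HNRNPC and HNRNPD are shown, together with the HNRNPM and HNRNPK cassette exons, because the isoform levels reported further on refer to them. Capitals mark the exon, or the stretch present only in the longer form, with 20 nt on each side, and the build is again GRCh37.
HNRNPA2B1 36 nt exon (form B1), chr7:26237431-26237506, minus strand: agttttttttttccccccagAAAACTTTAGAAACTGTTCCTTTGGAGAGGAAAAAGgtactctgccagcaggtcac
HNRNPC 39 nt stretch (form C2), chr14:21699097-21699175, minus strand: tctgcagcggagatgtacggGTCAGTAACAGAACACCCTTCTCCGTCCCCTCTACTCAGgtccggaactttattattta
HNRNPD 57 nt exon (exon 2), chr4:83292661-83292757, minus strand: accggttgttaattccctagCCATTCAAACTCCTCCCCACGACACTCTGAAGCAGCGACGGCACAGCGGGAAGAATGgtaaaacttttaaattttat
HNRNPM 45 nt exon, chr19:8538528-8538612, plus strand: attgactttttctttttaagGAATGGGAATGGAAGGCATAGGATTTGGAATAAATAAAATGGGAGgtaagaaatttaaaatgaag
HNRNPM 54 nt exon, chr19:8548022-8548115, plus strand: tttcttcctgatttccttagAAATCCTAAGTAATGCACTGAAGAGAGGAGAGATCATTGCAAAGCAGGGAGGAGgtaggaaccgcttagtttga
HNRNPK 72 nt exon, chr9:86588797-86588908, minus strand: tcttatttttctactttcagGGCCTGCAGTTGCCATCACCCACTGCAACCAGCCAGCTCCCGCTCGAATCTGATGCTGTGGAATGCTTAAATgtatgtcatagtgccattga

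Counts over the HNRNP skipped exon events were 1028572 and 1187081 with RBFOXi and 813536 and 1241453 with SCRM, between 0.711% and 0.918% of all counts of skipped exon events in a library. The same read may enter more than 1 event. VIM, FN1, CD44, TNC and NES, genes used in glioma cells, had counts in all 4 libraries, whereas GFAP, SOX2, PTPRC, EPCAM and CDH1 had no listed event, which gives no reading of their level. SCRM replicate 1 stood apart from the other 3 libraries in several respects. It held 274715 counts of TNC against 833554 to 1339115 in the others, and 1024731 of FN1 against 1556534 to 1834284, while its 593828 counts of VIM were the most, and over all skipped exon events it held 114415530 counts against 124782728 to 136097319. It also differed in the mutually exclusive exon events, as described with those events.

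Inclusion of the tested HNRNP exons differed little between cells given RBFOXi and cells given SCRM. It was measured as the proportion spliced in (PSI), which runs from 0 when the exon is skipped to 1 when it is always included and is computed from the counts of both forms divided by their effective lengths. Delta PSI is the RBFOXi mean minus the SCRM mean. The largest change in either direction over the 67 tested skipped exon events was 0.0252 in PSI, for the B1 exon of HNRNPA2B1, and this difference ran from 0.00652 without SCRM replicate 1 to 0.0438 without SCRM replicate 2. The median over these events was 7.38e-05, with 37 higher and 30 lower with RBFOXi, and over all 39615 tested events it was -5.65e-05. The median absolute change was 0.00109, and the median difference between the replicates was 0.00124 for RBFOXi and 0.00105 for SCRM. The first compares means of 2 libraries and the others single libraries, which vary more, so the sizes are not directly comparable. Of the 67 events, 53 had a mean PSI above 0.95.

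None of the 67 events was called changed, which required both an adjusted p under 0.05 in limma and a delta PSI of 0.1 or more in size. The share called over all tested skipped exon events was 0.0682%. The smallest adjusted p of an HNRNP event in limma was 0.9999. An unadjusted p under 0.05 was found for 3 of the 67, against 3.61% of all tested events, and for 7 with the replicate number as a block, against 5.82%. With a quasi-binomial F test, which works on the counts of both forms, it was found for 14 of the 67 (20.9%), against 6.99% of all tested events, and 12 of these 14 changed by less than 0.005 PSI. The smallest adjusted p of an HNRNP event in that test was 0.702, so that 0 were called. The groups did not overlap in 21 of the 67 events (31.3%), against 30.8% of all tested events, with 12 of them lower with RBFOXi (16.5% of all tested events) and 9 higher (14.3%).

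The 95% limits of the change lay within 0.1 PSI of 0 on both sides in 66 of the 67 events (98.5%), against 66.0% of all tested skipped exon events. HNRNP events were read deeply, with a median of 5280 counts per event and library against 492 over all tested events. Among events with a mean count of at least 1000, the limits lay within 0.1 in 64 of 64 HNRNP events and in 95.9% of all. The limits also depend on where PSI lies: for all tested events of that depth they were within 0.1 in 68.0% of those with a mean PSI from 0.05 to 0.95 and in 99.3% of those nearer to 0 or 1, where 53 of the 64 HNRNP events lay. The 11 HNRNP events of that depth with a mean PSI from 0.05 to 0.95 were all within 0.1. The exception was the 115 nt exon of HNRNPC, with a mean count of 115 and limits from -0.169 to 0.0395. The remaining 58 skipped exon events did not pass the count filter, and 57 of them had fewer than 4 skipping counts over the 4 libraries.

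**Figure D1:**
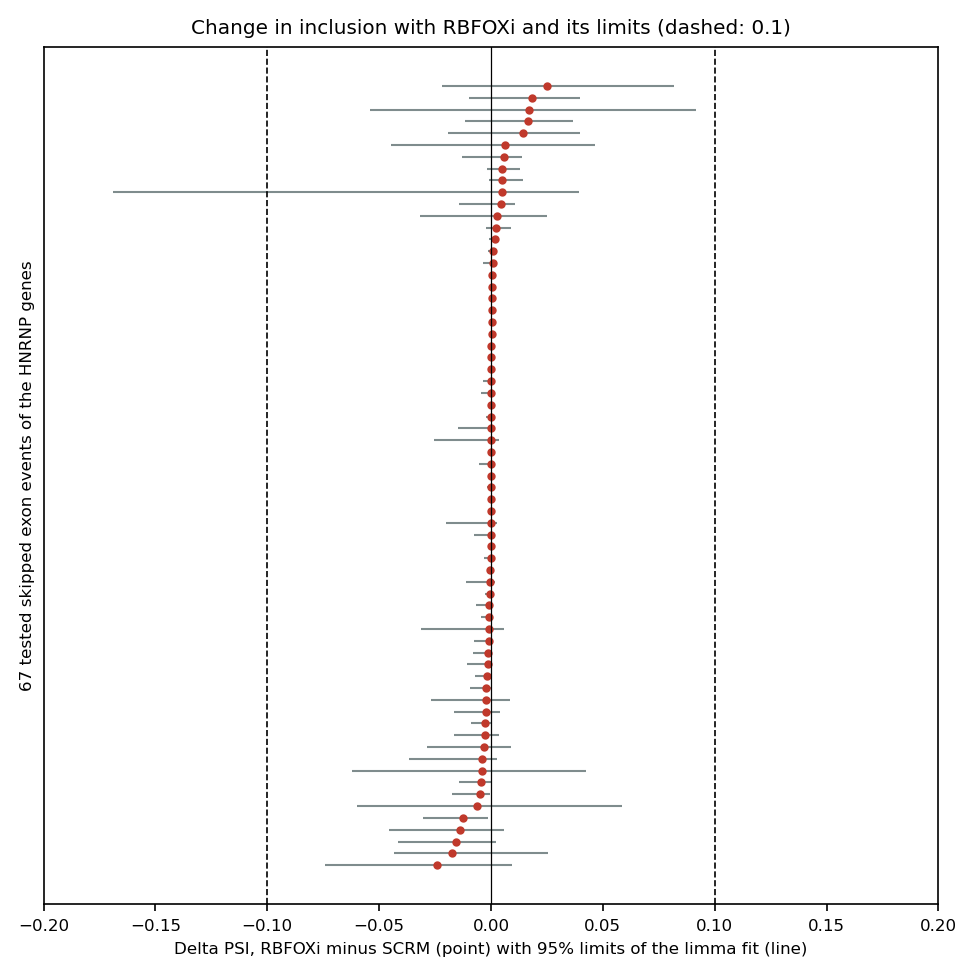
Delta PSI (RBFOXi minus SCRM, horizontal axis, no unit) of the 67 tested skipped exon events of the HNRNP genes, ordered by value; points are the differences of the group means and lines the 95% limits of the limma fit. The points lie between -0.0242 and 0.0252, and the line of a single event, the 115 nt exon of HNRNPC, crosses the dashed mark at a change of 0.1.

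**Figure D2:**
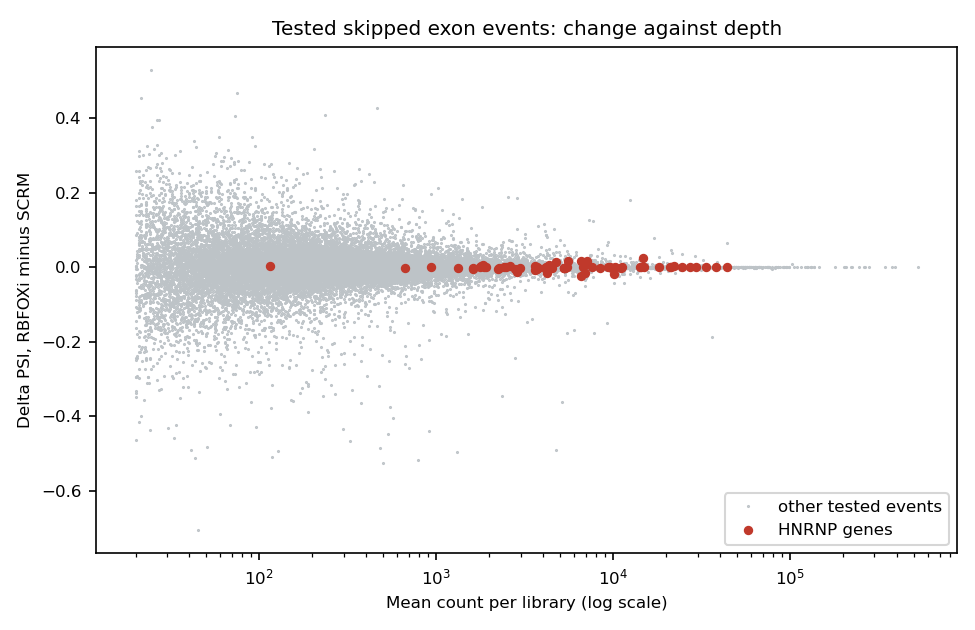
Delta PSI of every tested skipped exon event against its mean count per library (log scale), with the HNRNP events in red and the other events in grey. The spread of the grey points narrows with depth, and 64 of the 67 HNRNP events have a mean count of at least 1000.

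HNRNPM encodes a protein that binds GU-rich RNA and belongs to LASR, and 12 of its skipped exon events were tested. The 45 nt exon, coding in GENCODE and exon 11 of the canonical transcript (chr19:8538548-8538592), was included at a PSI of 0.975 and 0.973 with RBFOXi and of 0.986 and 0.987 with SCRM. Both RBFOXi libraries were below both SCRM libraries, by 0.0123 PSI on average, and skipping reads numbered 80 and 88 with RBFOXi and 47 and 46 with SCRM. The log2 odds of inclusion differed by -0.94 (SE 0.36), with an unadjusted p of 0.0222 and an adjusted p of 0.9999 or more in limma. The limits ran from -0.0304 to -0.00155 PSI. Without any of the 4 libraries in turn the difference was between -0.0135 and -0.0112. This is the exon with TGCATG 85 nt after it. Of the other exons with the motif after them, HNRNPH1 156 nt (match at 84 nt) changed by -0.000172 and HNRNPA1 156 nt by -0.0176. HNRNPM 54 nt changed by -0.00409 and HNRNPD 57 nt by 0.00635. The groups overlapped at the HNRNPA1, HNRNPM 54 nt and HNRNPD exons. HNRNPH1 144 nt, with the motif before it, changed by 0.000492. The part of the motif in these changes was not tested.

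The 54 nt exon of HNRNPM, exon 13 of the canonical transcript (chr19:8548042-8548095), had the lowest inclusion of the HNRNPM exons described. Its PSI was 0.833 and 0.809 with RBFOXi and 0.819 and 0.831 with SCRM. The groups overlapped and their means differed by -0.00409, with limits from -0.062 to 0.0425, and the difference became 0.00771 without RBFOXi replicate 2 and 0.00217 without SCRM replicate 2. The 78 nt exon (chr19:8539051-8539128) lies between the 45 nt exon and the 54 nt exon. Its event starts from the exon before the 45 nt exon (chr19:8536210-8536311), so its skipping form lacks the 45 nt exon too. The value therefore does not measure skipping of the 78 nt exon alone. It was 0.985 and 0.989 with RBFOXi and 0.984 and 0.977 with SCRM, a difference of 0.00604 with limits that include 0.

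HNRNPA1 encodes an abundant repressor of exons. Its 156 nt exon, known as exon 7B, makes the longer form A1-B (chr12:54676863-54677018) and was mostly skipped. PSI was 0.0757 and 0.105 with RBFOXi and 0.0774 and 0.138 with SCRM, that is 0.0903 ± 0.0206 (SD, n = 2) against 0.108 ± 0.0431 (SD, n = 2). The groups overlapped, and replicate 1 was lower than replicate 2 in each. The difference of -0.0176 had limits from -0.0432 to 0.0253, and it was -0.048 without SCRM replicate 1 and 0.0129, in the other direction, without SCRM replicate 2. The 100 nt across the skipping junction of this exon had 35 copies elsewhere in the genome with at least 95 identical bases, against 2 for the 100 nt within the included form, and reads were counted only when aligned uniquely, so the absolute level of exon 7B is uncertain. The effect of these copies on the difference between groups was not tested. The other HNRNPA1 exons tested had a mean PSI above 0.95.

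HNRNPA2B1 makes form A2 or, with a 36 nt exon near the start of the coding sequence (chr7:26237451-26237486), form B1, both of which bind RNA and take part in its sorting. The B1 exon was at a PSI of 0.195 and 0.230 with RBFOXi and of 0.169 and 0.206 with SCRM. The RBFOXi mean was 0.212 ± 0.0246 (SD, n = 2) and the SCRM mean 0.187 ± 0.0264 (SD, n = 2). The 4 values interleave, and limits from -0.0219 to 0.0817 include 0. The difference of 0.0252 was 0.00652 without SCRM replicate 1, 0.00776 without RBFOXi replicate 2, 0.0425 without RBFOXi replicate 1 and 0.0438 without SCRM replicate 2. No copy of its skipping junction was found elsewhere in the genome. The other 7 tested events of the gene were each at a mean PSI above 0.95.

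HNRNPC, a LASR member that binds runs of uridine, makes form C2 when a downstream 5′ splice site adds 39 nt of coding sequence (chr14:21699117-21699155). The share of this site was 0.225 and 0.222 with RBFOXi and 0.209 and 0.224 with SCRM. The groups overlapped, the difference was 0.00661, and the limits ran from -0.0294 to 0.0475. Without SCRM replicate 1 it was -0.00083. The 26 nt exon of HNRNPC, which is untranslated in GENCODE (chr14:21731470-21731495), was included at 0.911 and 0.919 with RBFOXi and at 0.889 and 0.904 with SCRM. The groups did not overlap, but limits from -0.0100 to 0.0398 include 0. Its skipping junction had 1 near-identical copy elsewhere.

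HNRNPD, also called AUF1, binds AU-rich elements that set mRNA stability, and its 4 protein forms combine exon 2 and exon 7. Exon 7 (147 nt, chr4:83277690-83277836) was at a PSI of 0.430 and 0.415 with RBFOXi and at 0.393 and 0.418 with SCRM. Exon 2 (57 nt, chr4:83292681-83292737) was at 0.848 and 0.844 with RBFOXi and at 0.848 and 0.832 with SCRM. Both sets of values overlapped between the groups. The differences were 0.0169 for exon 7, with limits from -0.0541 to 0.0915, and 0.00635 for exon 2, with limits from -0.0447 to 0.0463. With a library left out, exon 7 ran from 0.00428 (without SCRM replicate 1) to 0.0296 (without SCRM replicate 2), and exon 2 turned to -0.00171 without SCRM replicate 2. Exon 2 is the exon with TGCATG 214 nt after it. The 100 nt within the form with exon 7 had 1 near-identical copy elsewhere.

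A 107 nt exon of HNRNPD lies in transcripts that GENCODE marks for NMD (chr4:83276048-83276154) and was rarely used. Its PSI was 0.00852 and 0.0151 with RBFOXi and 0.0063 and 0.00766 with SCRM. The RBFOXi libraries were both higher, and limits from -0.000922 to 0.0144 include 0. The other HNRNP events with an unadjusted p under 0.05, beside the HNRNPM 45 nt exon, were 2 rare skipping events of HNRNPD, at a 169 nt exon and at the 57 nt exon spliced between other neighbours. They had the same skipping counts, 2 and 15 with RBFOXi and 0 and 1 with SCRM, so that RBFOXi replicate 2 held most of them, and changes of -0.00245 and -0.00496 PSI.

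**Figure D3:**
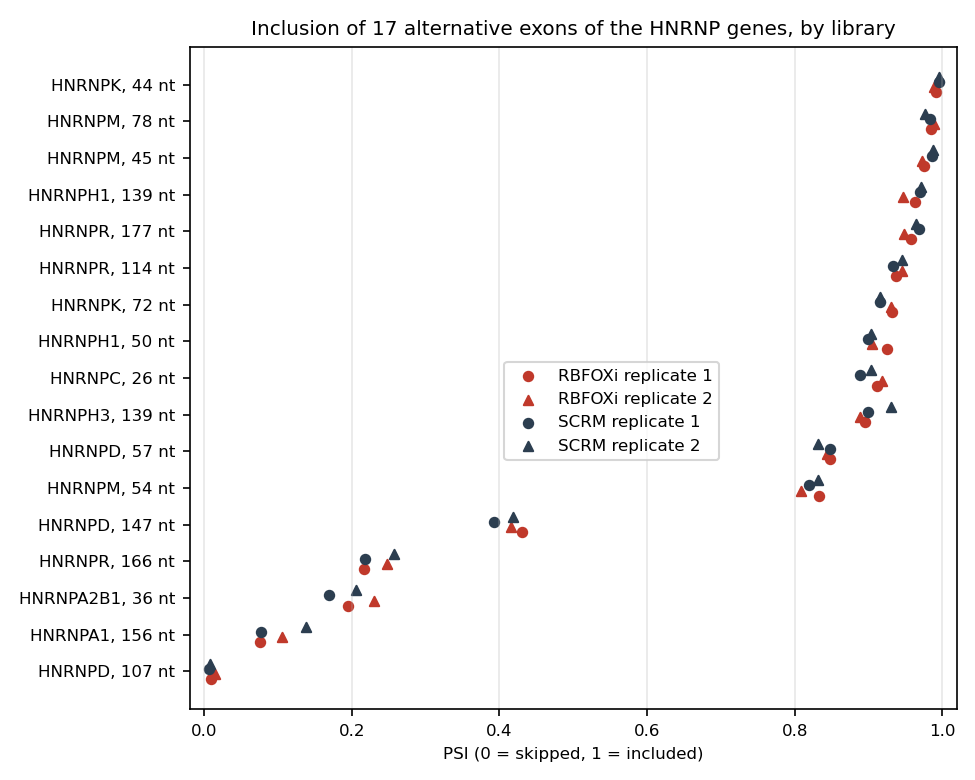
PSI (horizontal axis, 0 to 1) of 17 alternative exons of the HNRNP genes, ordered by mean PSI, with red symbols for RBFOXi and dark symbols for SCRM, circles for replicate 1 and triangles for replicate 2. Mean PSI runs from 0.0094 for the HNRNPD 107 nt exon to 0.993 for the HNRNPK 44 nt exon, and the symbols of a row lie close together, within 0.0626 PSI at most. Some neighbours with a mean PSI above 0.9 change order between the groups.

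HNRNPH1 and HNRNPH3 encode proteins that bind runs of guanosine. The 139 nt exon of HNRNPH1, exon 5 of the canonical transcript (chr5:179046270-179046408), is not a multiple of 3 nt long, and 6 transcripts that skip it are marked for NMD. Its PSI was 0.963 and 0.947 with RBFOXi and 0.970 and 0.971 with SCRM. The RBFOXi libraries were both lower, by 0.0156 on average, with limits from -0.0415 to 0.00209. The 50 nt exon of HNRNPH1 (chr5:179042547-179042596) was at 0.925 and 0.905 with RBFOXi and at 0.899 and 0.904 with SCRM, again without overlap and with limits that include 0, from -0.0193 to 0.0396. The 139 nt exon of HNRNPH3 (chr10:70097615-70097753) showed the largest fall among the HNRNP exons, from 0.900 and 0.931 with SCRM to 0.895 and 0.888 with RBFOXi. That difference of -0.0242 had limits from -0.0742 to 0.0096, and it was -0.00882 without SCRM replicate 2 and -0.0396 without SCRM replicate 1.

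HNRNPK binds cytosine-rich RNA and DNA. Its 72 nt coding exon (chr9:86588817-86588888) was at a PSI of 0.932 and 0.931 with RBFOXi and of 0.916 in each SCRM library. The groups did not overlap and their means differed by 0.0164, more than the difference between replicates. But the limits of the fit, which shares the spread over events, ran from -0.0118 to 0.0368. The 44 nt exon of HNRNPK (chr9:86590377-86590420), whose skipping leaves transcripts marked for NMD, was at 0.992 and 0.989 with RBFOXi and at 0.995 in each SCRM library, with limits from -0.0141 to 0.000334. The 100 nt within the included forms of these exons had 2 and 1 near-identical copies elsewhere in the genome.

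HNRNPR, a relative of SYNCRIP, showed exons at both ends of the scale. The 166 nt exon near the start of the gene (chr1:23667345-23667510) was at a PSI of 0.216 and 0.247 with RBFOXi and of 0.218 and 0.257 with SCRM. The 114 nt exon (chr1:23660011-23660124), with TGCATG 233 nt before it, was at 0.937 and 0.946 with RBFOXi and at 0.933 and 0.946 with SCRM. Both sets overlapped, and the differences were -0.00618 and 0.00269. Each changed sign with a library left out, the first to 0.0133 without SCRM replicate 2 and 0.00893 without RBFOXi replicate 1, the second to -0.00396 without SCRM replicate 1 and -0.00181 without RBFOXi replicate 2. The 177 nt exon (chr1:23650049-23650225) was at 0.958 and 0.948 with RBFOXi and at 0.969 and 0.965 with SCRM, lower in both RBFOXi libraries, with limits from -0.0456 to 0.00593. SCRM replicate 1 had the fewest counts at these exons, 1074 at the 166 nt exon against 5719 in SCRM replicate 2.

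Ordered by mean PSI, the exons that were used in part ran from HNRNPA1 exon 7B (0.0990) through the HNRNPA2B1 B1 exon (0.2), the HNRNPR 166 nt exon (0.235), HNRNPD exon 7 (0.414), the HNRNPM 54 nt exon (0.823) and HNRNPD exon 2 (0.843) to the exons near 0.9. The ranges of the B1 exon and of the HNRNPR exon over the libraries overlapped, as did those of the HNRNPM 54 nt exon and HNRNPD exon 2. Within each of the 4 libraries, however, the HNRNPR exon was above the B1 exon, and HNRNPD exon 2 was above the HNRNPM exon. The closest case was 0.832 against 0.831 for the latter 2 exons in SCRM replicate 2. HNRNPD exon 7 was separate from its neighbours in all 4 libraries. The PSI of exon 7B was below that of the B1 exon in all 4 libraries, but its place is uncertain because of the copies of its skipping junction, and the plain share of counts, without division by length, was higher for exon 7B (0.234 with RBFOXi and 0.269 with SCRM) than for the B1 exon (0.154 and 0.135). The gap between HNRNPD exon 7 and the HNRNPM 54 nt exon was wider than any difference between groups at these exons.

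Among splice sites and introns of these genes, 5 events at each of the alternative 3′ and 5′ splice sites and 2 retained introns were tested. None was called, and 0.0% of all tested events of each of these types were called. An unadjusted p under 0.05 in limma was found for 0 of these HNRNP events, against 3.32% of all tested 3′ splice sites, 3.59% of 5′ splice sites and 1.74% of retained introns, and the quasi-binomial F test called 0. That test gave an unadjusted p under 0.05 for 2 of the 5 HNRNP 3′ splice sites, against 5.32% of all, and for 0 of the others. In HNRNPK an alternative 3′ splice site adds 60 nt that are partly coding in GENCODE (chr9:86584296-86584355), and its share was 0.465 and 0.475 with RBFOXi and 0.449 and 0.467 with SCRM. An alternative 3′ splice site that adds 9 nt to an HNRNPR exon (chr1:23645182-23645190) was used at 0.0673 and 0.0579 with RBFOXi and at 0.0837 and 0.0696 with SCRM. The HNRNPR values did not overlap between groups, and the limits of -0.0326 to 0.0117 include 0.

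An alternative 5′ splice site that adds 45 nt in HNRNPH3 (chr10:70098400-70098444) varied widely between libraries. Its share was 0.559 and 0.624 with RBFOXi and 0.503 and 0.597 with SCRM, and the difference of 0.0412, with limits from -0.0438 to 0.121, became -0.00572 without SCRM replicate 1. The 206 nt intron of HNRNPH1 that holds TGCATG (chr5:179048037-179048242) was retained at 0.0760 and 0.0330 with RBFOXi and at 0.0142 and 0.0393 with SCRM. These values overlap, and the limits ran from -0.00297 to 0.0927. The other event listed as a retained intron is a 1169 nt stretch of HNRNPH3 (chr10:70097091-70098259) that contains the 139 nt exon described above. Its spliced counts, 280 and 413 with RBFOXi and 157 and 233 with SCRM, equal the skipping counts of that exon. Its values therefore do not measure intron retention alone. They were 0.350 and 0.237 with RBFOXi and 0.272 and 0.351 with SCRM, also with overlap. The limits of this event were the widest of these, from -0.125 to 0.116. The difference of -0.0176 became 0.0389 without RBFOXi replicate 2 and 0.0218 without SCRM replicate 2.

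In the mutually exclusive exon events, SCRM replicate 1 differed from the other 3 libraries. Such an event compares reads of an exon with reads of a later exon, and the value is the share of the exon nearer the 5′ end. Of the 60 tested HNRNP pairs, both exons were listed as skipped exons in 57, and in 43 pairs both had a mean PSI above 0.95, so that most pairs were made of exons found in nearly all transcripts. None was called, nor was any over all tested pairs (0.0%). An unadjusted p under 0.05 in limma was found for 1 of the 60 pairs, against 1.51% of all, and likewise for 1 with the quasi-binomial F test, against 1.98% of all, which called 0. The groups did not overlap in 6 pairs, against 24.4% of all tested pairs.

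SCRM replicate 1 had the lowest share of the 5′ exon in 50 of the 60 HNRNP pairs (83.3%) and in 59.9% of all tested pairs. The median share over the HNRNP pairs was 0.482 in SCRM replicate 1, 0.519 in SCRM replicate 2, 0.513 in RBFOXi replicate 1 and 0.506 in RBFOXi replicate 2. The widest case was in HNRNPH1, where a 156 nt exon was set against a 90 nt exon nearer the 3′ end, at 0.730 and 0.744 with RBFOXi and at 0.519 and 0.791 with SCRM. The difference there was 0.0826 with all libraries, -0.0535 without SCRM replicate 1 and 0.219 without SCRM replicate 2. A pair in HNRNPH3, with a 135 nt and a 140 nt exon, was at 0.486 and 0.506 with RBFOXi and at 0.360 and 0.496 with SCRM. In HNRNPD the 57 nt exon, set against a 162 nt exon, was at 0.428 and 0.446 with RBFOXi and at 0.316 and 0.460 with SCRM. Of these pairs the low value was in SCRM replicate 1 each time, and without that library the differences in HNRNPH3 and HNRNPD fell from 0.0681 to -0.000123 and from 0.0496 to -0.0225. The part of RNA quality in these values was not tested.

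**Figure D4:**
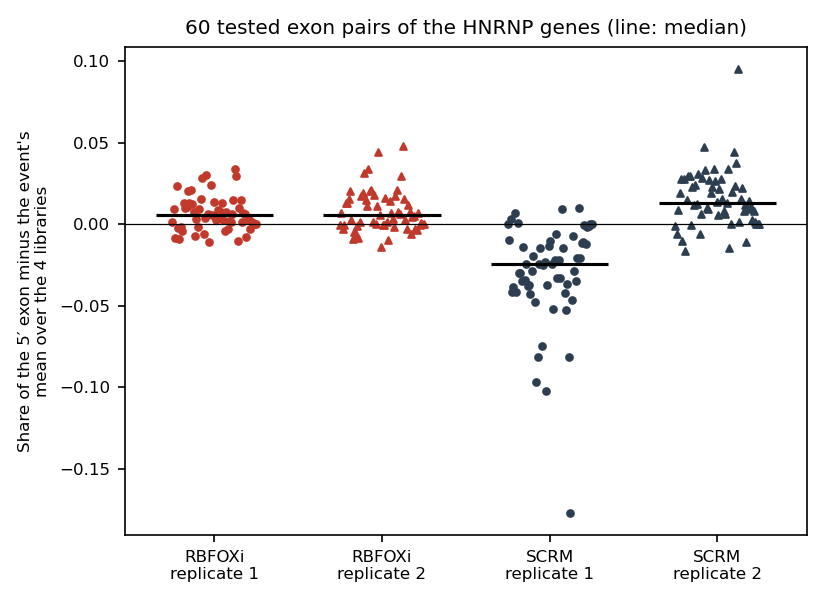
Share of the exon nearer the 5′ end minus its mean over the 4 libraries (vertical axis, no unit) for the 60 tested mutually exclusive exon pairs of the HNRNP genes, by library, with a line at the median. The points of SCRM replicate 1 lie mostly below 0, whereas those of the other 3 libraries lie mostly above it.

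No exon of the related genes considered was called either. In the other hnRNP genes, a list that holds RALY, SYNCRIP and PCBP2 among others, 11 of 15 genes had listed events. Of their 56 tested skipped exon events 0 were called, against 0.0682% of all tested events, so few calls could arise in a list of this size. An unadjusted p under 0.05 in limma was found for 2, against 3.61% of all, and the median delta PSI was 0.000134. Changes in that list ran from -0.0213 to 0.0421. For the partners of RBFOX2 in LASR, 5 of the 7 genes considered had listed events. Their 39 tested skipped exon events, 26 of them in HNRNPM, HNRNPH1 and HNRNPC, held 0 calls, against 0.0682% of all. An unadjusted p under 0.05 in limma was found for 1 (the HNRNPM 45 nt exon), against 3.61% of all. Changes ran from -0.0156 to 0.0405. The remaining 13 events were in ILF2 and DDX5, with a median of 1.59e-05.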

How the data were processed

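Total RNA of U87MG cells was sequenced as paired-end reads. The authors aligned each read uniquely to hg19 with STAR 2.4.2a, as the submitters' processing notes and the methods give, and used rMATS with UCSC known genes to count reads for each splicing event. The deposited cells hold raw counts for both forms in each library, and the tables give both effective lengths. These counts take in reads within an alternative region as well as reads across junctions. A read within an exon does not show which neighbours that exon was spliced to. The p-values, FDR and inclusion differences of the authors' own comparison, and the 10 columns of their inclusion levels, were not used.

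PSI is the share of the inclusion form after division by effective length. For the test, a pseudocount of 0.5 was added and log2 odds were fitted over all events of a type in limma 3.58.1 (R 4.3.3), with condition as the only term and a variance trend on how much information an event carries. Benjamini-Hochberg adjustment was made within the type. An event was tested with 5 or more counts in each library, 20 or more on average, and 4 or more summed counts for either form. The 95% limits were turned into PSI at the SCRM mean. The fit was tested on simulated data. With 2 libraries a group, p-values rest on the spread shared over events.

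The members and gene lists were chosen with earlier results of these data known. Some genes of the lists and some sequences are not reported here, and the list counts leave those genes out. Named were called events, in each gene up to 3 tested exons with the most counts and a mean PSI from 0.05 to 0.95, the 5 largest falls and rises without overlap, the exons of named protein forms, and in each other event type up to 3 events by change and 3 by count. The HNRNPC 115 nt and the rare HNRNPD events were named after their values were seen. Gene models were GENCODE 44 lifted to GRCh37. Copies of junctions were searched with blastn 2.17.0, and Python 3.11.15 and samtools 1.23.1 were used.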

Additional observations from a re-analysis of the deposited data

How the results depend on the processing

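The number of HNRNP events called stayed at 0 in each of the 5 event types with every alternative run, except for the exon pairs without SCRM replicate 2, where 5 pairs of HNRNPH1, HNRNPH3 and HNRNPD were called, together with 5.52% of all tested pairs, so that the leave-one-out counts for exon pairs ran from 0 to 5. SCRM replicate 1 is then the lone control and is assumed to vary like the other group. The alternatives were a quasi-binomial F test, chosen after seeing the data, pseudocounts of 0.1 and 1, stricter and looser count filters, a delta PSI minimum of 0.05 or 0.2, the plain share of counts as PSI, 1 event per alternative region, the replicate block and each library left out. The planned tests with edgeR and DESeq2 were not run. The number of HNRNP skipped exon events with an unadjusted p under 0.05, 3 of 67 in limma, was 14 with the quasi-binomial F test (20.9%, against 6.99% of all tested events), 7 with a pseudocount of 0.1 (10.4%, against 4.1%), 7 with the replicate block (10.4%, against 5.82%) and 1 of 49 with 1 event per region (2.04%, against 3.78%). With a library left out it ran from 0 of 49 without RBFOXi replicate 2 (against 3.79%) to 6 of 57 without RBFOXi replicate 1 (10.5%, against 4.51%). The replicate block changed no call. The labels give the groups the same replicate numbers and state no shared source, and deviations of same-numbered libraries correlated at 0.0944 over all skipped exon events, 0.0881 over all exon pairs and 0.118 over retained introns, and at 0.195 and 0.376 over the HNRNP skipped exons and exon pairs. Events with limits within 0.1 PSI numbered 123 of 125 with the looser filter and, with a library left out, from 47 of 49 to 57 of 61, with the lowest share, 51 of 57 (89.5%, against 51.0% of all), without RBFOXi replicate 1. Events without overlap numbered from 30 of 53 without SCRM replicate 1 (56.6%, against 62.3% of all) and 30 of 49 without RBFOXi replicate 2 (61.2%, against 60.9%) to 39 of 57 without RBFOXi replicate 1 (68.4%, against 63.0%) and 43 of 61 without SCRM replicate 2 (70.5%, against 70.6%). The difference of 5 of the 17 named skipped exons changed sign with a library left out. The median delta PSI was -6.51e-05 with the looser filter and ran from -0.000298 (without SCRM replicate 1) to 0.000404 (without SCRM replicate 2), below and above 0. UGCAUG lay anywhere in a flanking intron of 53.1% of the HNRNP exons and 69.8% of all tested exons, whose introns are longer, with medians of 719 nt and 2250.5 nt after the exon. Intervals cover the spread between these libraries only. The 58 skipped exon events left out by the main filter have limits only with the looser filter. For 57 of them those limits rest on fewer than 4 skipping counts.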
